A study of Mus musculus with 4 samples.

Results

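Myelin owes much of its mass to galactosylceramide and its sulfated form, sulfatide, lipids whose fatty acid is unusually long and often carries a hydroxyl group. Expression of 5 enzymes that build them was examined here in mouse spinal cord: Elovl1 and Elovl7, which lengthen fatty acids, Cers2, which joins very long fatty acids to the sphingoid base, Fa2h, which hydroxylates the fatty acid, and Gal3st1, which adds the sulfate. The genes were chosen by name from a table the authors deposited, where Cers2 stands under its older symbol Lass2. Each was the single symbol of 1 transcript cluster, a set of probes that the array summarises as 1 value. They are 5 of 369 genes that could be named, through 420 listed clusters of 35557 measured. That table holds only clusters that differed at least 1.45-fold between the groups on these same arrays, so a gene could be named here only if it differed, and the direction of the 5 genes is not independent evidence.

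The tissue was whole spinal cord at postnatal day 14, taken from mice of a mixed C57 and 129 background. The mutant, Sip1 cKO, had the genotype Sip1c/c;Olig1-Cre, with both copies of Sip1 conditional. Its control had the genotype Sip1c/+;Olig1-Cre, with 1 conditional copy and 1 unaltered copy, and came from the same litters. Both groups therefore carried Cre driven from Olig1, a gene of the oligodendrocyte lineage, and the control was not a wild type. Sip1, now named Zeb2, encodes a zinc finger transcription factor. Each group had 2 arrays, called biological replicates in the labels, and whether a sample held 1 animal or several was not given in the sources used here. Array medians lay between 6.62 and 6.70 on the log2 scale, and the small number of arrays limited the precision of every value. Zeb2 itself read 8.61 and 8.66 in Sip1 cKO against 10.29 and 10.47 in control, a log2 change of -1.75 ± 0.11 (SE), so each array followed its label, as far as its probes read the deleted part, whose position was not analysed here.

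In oligodendrocytes, fatty acids made in the cytosol or taken up are extended on the endoplasmic reticulum by elongases, each of which sets the chain length it accepts and delivers. Ceramide synthases then select acyl chains by length, Fa2h provides hydroxylated chains, and the ceramide receives galactose from Ugt8a before Gal3st1 sulfates it in the Golgi. In mice, loss of Cers2, Fa2h or Gal3st1 is known to disturb the upkeep of myelin or of the junctions beside the nodes, and mutations in human FA2H cause a disease of the white matter.

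The transcripts of all 5 enzymes were lower in Sip1 cKO cord than in control. The decreases ran from 3.95-fold for Gal3st1 to 22.6-fold for Fa2h, with a median log2 change of -2.88 over the 5 genes, against -1.29 over all 369 named genes and -0.01 over all clusters. All 5 passed the test (limma, Benjamini-Hochberg adjusted p under 0.05 over all clusters). Of all 35557 clusters 305, or 0.858%, passed as lower. Among the 369 named genes, 204 or 55.3% passed as lower and 0 as higher, so 5 of 5 stands against a high share that the naming had already set. The Sip1 cKO and control arrays did not overlap for any of the 5 genes. This was also the case, with both Sip1 cKO arrays below both control arrays, for 25.1% of all clusters. In whole tissue, fewer oligodendrocytes and less RNA of these genes per oligodendrocyte cannot be told apart.

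**Figure D1:**
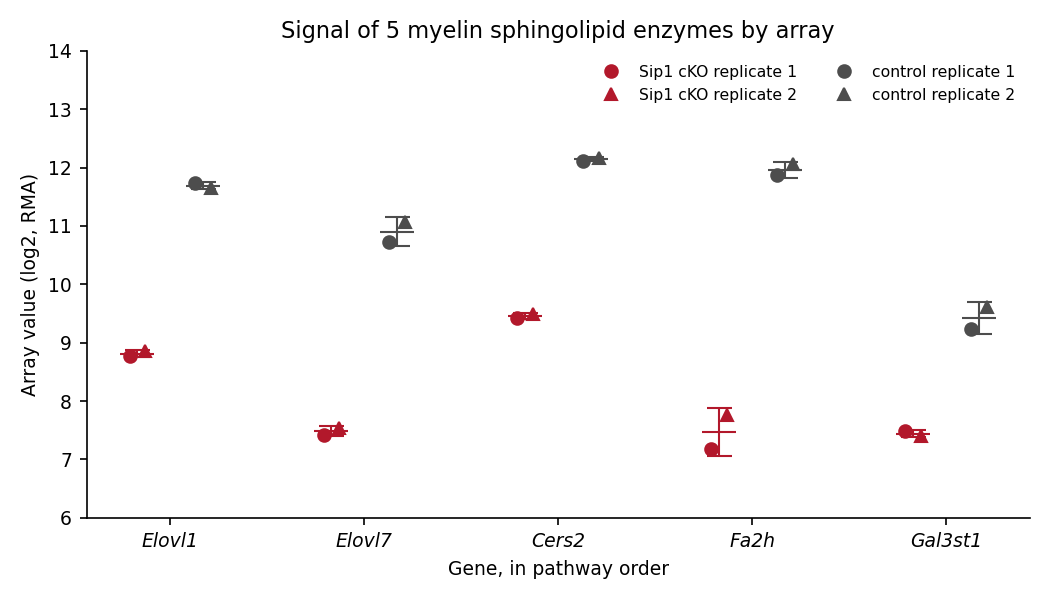
Array value (log2, RMA) of the 5 enzymes on each array, in pathway order; red symbols are Sip1 cKO, grey symbols control, circles replicate 1 and triangles replicate 2, with bars for group mean ± SD (n = 2). Both Sip1 cKO arrays lay below both control arrays for each gene, and the widest gap between Sip1 cKO arrays was that of Fa2h, 7.18 and 7.76.

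Because the mutated gene encodes a transcription factor, the bases before the starts of the 5 genes were read for the motif of that factor. Zeb2 is known to bind DNA through CACCT, often as a pair of copies, and CACCTG is a longer form that contains it. RefSeq windows on GRCm38.p6 were found for 4 of the 5 genes, Elovl1, Elovl7, Cers2 and Gal3st1, with 8 windows in all, since a gene may have several starts. The 250 bases before each start were searched on both strands. CACCT was present in 4 of the 8 windows, against 46.0% of all 32851 windows of this length. At least 2 copies were present in 3 of the 8, against 13.8% of all windows. CACCTG was present in 3, against 17.2%. The bHLH motif CAGCTG was found in 1, a Cers2 window, against 13.0%, and the SOX core ACAANG in 2 overlapping Gal3st1 windows, against 36.3%. For each gene the window with the most CACCT is shown, because it carries the motif of the mutated factor, in capitals on either strand (AGGTG is the reverse). They lie at chr4:118429451-118429700 for Elovl1, chr13:108214154-108214403 for Elovl7, chr3:95318580-95318829 for Cers2 and chr11:3989683-3989932 for Gal3st1, all on the plus strand. The first start of Elovl1, the first of Cers2 and the first 2 of Gal3st1 held no CACCT in these windows. The 8 windows come from 4 genes and are not independent, and whether their counts differ from the shares was not tested. Such matches are a description of letters, and binding was not measured in this series.
Elovl1: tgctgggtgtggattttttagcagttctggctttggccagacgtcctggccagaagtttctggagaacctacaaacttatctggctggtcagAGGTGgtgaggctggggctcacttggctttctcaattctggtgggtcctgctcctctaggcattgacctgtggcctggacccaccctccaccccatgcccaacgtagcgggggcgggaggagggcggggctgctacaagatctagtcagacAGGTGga
Elovl7: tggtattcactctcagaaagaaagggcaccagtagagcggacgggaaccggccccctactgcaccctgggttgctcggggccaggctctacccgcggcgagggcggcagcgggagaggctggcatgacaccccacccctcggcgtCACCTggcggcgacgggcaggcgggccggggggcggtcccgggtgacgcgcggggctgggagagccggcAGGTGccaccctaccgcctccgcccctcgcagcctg
Cers2: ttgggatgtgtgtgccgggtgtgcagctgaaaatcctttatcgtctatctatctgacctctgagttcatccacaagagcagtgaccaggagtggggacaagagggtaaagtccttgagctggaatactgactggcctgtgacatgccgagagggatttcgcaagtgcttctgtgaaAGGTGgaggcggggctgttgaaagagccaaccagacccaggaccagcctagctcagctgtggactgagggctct
Gal3st1: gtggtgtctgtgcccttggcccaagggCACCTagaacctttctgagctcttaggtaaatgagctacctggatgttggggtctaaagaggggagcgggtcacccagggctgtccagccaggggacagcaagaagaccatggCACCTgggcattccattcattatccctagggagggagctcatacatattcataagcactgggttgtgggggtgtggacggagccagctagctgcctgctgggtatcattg

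The chain elongation step was represented by 2 elongases. Elovl1 extends saturated and monounsaturated acyl chains to the very long chains used in sphingolipids. It read 8.77 and 8.85 in Sip1 cKO and 11.73 and 11.65 in control. The SD between replicates was 0.057 in Sip1 cKO and 0.054 in control (n = 2 each), whereas the groups were 2.80 apart at their nearest arrays. Elovl1 fell by 2.88 ± 0.10 on the log2 scale (SE; limma, adjusted p = 0.00569), a 7.36-fold decrease. Expressed as a share of the control signal, 13.6% was left (95% confidence interval 11.4 to 16.2%).

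Elovl7 prefers saturated long chain acyl groups. Its arrays read 7.42 and 7.54 in Sip1 cKO against 10.73 and 11.07 in control. The control arrays differed by 0.345, far less than the 3.19 that separated the nearest arrays of the groups. Elovl7 fell by 3.42 ± 0.15 on the log2 scale (SE; limma, adjusted p = 0.00691), 10.7-fold, which left 9.34% of the control signal (7.12 to 12.3%). Hsd17b12, the reductase that serves the elongases after their condensation step, read 9.77 and 9.89 in Sip1 cKO and 10.28 and 10.47 in control. The log2 change of Hsd17b12 was -0.55 ± 0.12 (SE), which did not pass (limma, adjusted p = 0.158), and 68.5% of the control signal was left (55.3 to 84.7%).

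Cers2, the ceramide synthase that favours very long acyl chains and the main one of oligodendrocytes, had the closest replicates of the 5 genes. It read 9.43 and 9.49 in Sip1 cKO and 12.12 and 12.17 in control. The SD was 0.047 in Sip1 cKO and 0.034 in control (n = 2 each). Cers2 fell by 2.68 ± 0.09 on the log2 scale (SE; limma, adjusted p = 0.00569), 6.41-fold, and 15.6% of the control signal was left (13.1 to 18.5%). The other 5 ceramide synthases and the remaining genes on the ceramide synthesis list, 18 in all, had no cluster named and were not analysed here.

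Fa2h, the hydroxylase that supplies 2-hydroxylated fatty acids to myelin galactolipids, had the largest decrease of the 5 genes. Sip1 cKO arrays read 7.18 and 7.76 and control arrays 11.87 and 12.06. Here the mutant arrays were 0.584 apart, more than for any other of the 5 genes, while the groups were still 4.11 apart at their nearest arrays. Fa2h fell by 4.50 ± 0.22 on the log2 scale (SE; limma, adjusted p = 0.00872), or 22.6-fold. Only 4.43% of the control signal was left (2.97 to 6.62%). In the authors' deposited table Fa2h was 21.1-fold higher in control, from group means of 194 in Sip1 cKO and 4028 in control on a linear intensity scale.

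The transcript for the last step, sulfation, showed the smallest decrease of the 5. Gal3st1, which moves sulfate onto galactosylceramide and is the only known source of sulfatide, read 7.48 and 7.41 in Sip1 cKO and 9.23 and 9.62 in control. Its control arrays differed by 0.382, the widest control gap of the 5 genes, against a separation of 1.75 between the groups. Gal3st1 fell by 1.98 ± 0.16 on the log2 scale (SE; limma, adjusted p = 0.0255), 3.95-fold, which left 25.3% of the control signal (19.1 to 33.6%). Of the 5 genes it was the only one whose call was lost whichever array was left out, with adjusted p between 0.0594 and 0.108.

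With 3 arrays the tests were weaker for the other 4 genes as well. With Sip1 cKO replicate 1 or replicate 2 left out, Elovl1, Elovl7, Cers2 and Fa2h still passed. None of the 5 passed in limma without control replicate 1 (adjusted p 0.0557 to 0.0663) or without control replicate 2 (0.0718 to 0.0881), although all 5 had an unadjusted p under 0.05 in each of these fits. In those fits 0 of all clusters passed in either direction, against 2949 lower and 2611 higher at an unadjusted p under 0.05 without control replicate 1, and 3527 and 3069 without control replicate 2. Decreases of the 5 genes kept their direction throughout, which was fixed in advance because their groups did not overlap.

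Genes that surround the 5 enzymes were set beside them from 5 lists of 94 genes, covering fatty acid supply and elongation, ceramide synthesis, galactolipid synthesis and carriers, other sphingolipid branches and sphingolipid breakdown. Only 3 of the 94 were named, and of these 2 fell, 0 rose and 1, Hsd17b12, did not pass. Among all 369 named genes 55.3% passed as lower and 0 as higher, so these counts say little about the lists. A gene could be named only past the 1.45-fold cut-off, so pathway steps that did not change cannot be seen here. Ugt8a, which adds galactose to ceramide and so stands between Cers2 and Gal3st1, read 8.80 and 9.01 in Sip1 cKO and 12.45 and 12.65 in control. Ugt8a fell by 3.65 ± 0.13 on the log2 scale (SE; limma, adjusted p = 0.00569), with 7.99% of the control signal left (6.30 to 10.1%). Gltp, a cytosolic carrier of glycolipids, read 9.28 and 9.39 in Sip1 cKO and 11.77 and 11.92 in control. Gltp fell by 2.51 ± 0.11 on the log2 scale (SE; limma, adjusted p = 0.00691), with 17.5% left (14.4 to 21.4%). The other 91 genes of the lists, enzymes of sphingolipid breakdown among them, were not analysed here.

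**Figure D2:**
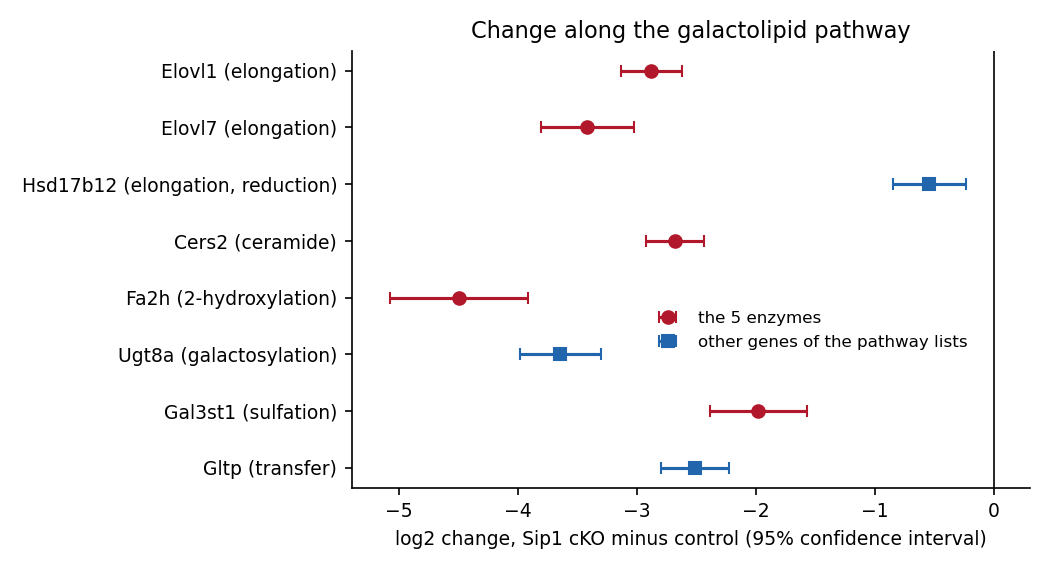
Change of each gene along the pathway, from chain elongation to sulfation and transfer; the horizontal axis is the log2 change, Sip1 cKO minus control, with its 95% confidence interval from limma, red circles are the 5 enzymes and blue squares the other named genes of the pathway lists. Fa2h lies lowest at -4.50, Gal3st1 at -1.98 has the smallest change of the 5, and Hsd17b12 at -0.55 lies nearest to 0. Genes under the 1.45-fold cut-off could not be named and are not shown.

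The measured decreases of the 5 enzymes differed in size. By size of decrease they ranked Fa2h, Elovl7, Elovl1, Cers2 and Gal3st1. Confidence intervals of neighbours in this order overlapped for Elovl7 with Elovl1 and for Elovl1 with Cers2, and did not overlap for Fa2h with Elovl7 or, narrowly, for Cers2 with Gal3st1. To compare changes without setting the level of one probe set against another, the difference between 2 genes was taken within each array and then compared between groups, for all 10 pairs, each taken in the order of this ranking. The widest contrast was Fa2h minus Gal3st1, at -0.30 and 0.36 in Sip1 cKO and 2.63 and 2.45 in control. Fa2h thus decreased 5.71-fold more than Gal3st1, a difference of -2.51 ± 0.34 (SE, log2). Relative to Cers2, its partner in making hydroxylated ceramide, Fa2h decreased by a further 1.81 ± 0.27 (log2, -1.81 as Fa2h minus Cers2). The narrowest contrast was Elovl1 minus Cers2, at -0.66 and -0.64 in Sip1 cKO and -0.39 and -0.51 in control. That is a difference of -0.20 ± 0.06, or 1.15-fold, between the elongase and the synthase that uses its products. Elovl7 minus Elovl1, the contrast of the elongases, was -0.54 ± 0.21. An exact permutation test (two-sided) with 2 arrays against 2 cannot give a p under 0.333, and each of the 10 pairs gave 0.333, also after Benjamini-Hochberg adjustment over the 10. The differences are therefore given as values. In Sip1 cKO the means of Fa2h, Elovl7 and Gal3st1 were nearly equal, at 7.47, 7.48 and 7.44. Their control means were 11.96, 10.90 and 9.43, so the order of their decreases follows their control levels. Elovl1 and Cers2 stayed higher in Sip1 cKO, at 8.81 and 9.46. How far probe background at low signal sets the differences between genes was not tested.

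**Figure D3:**
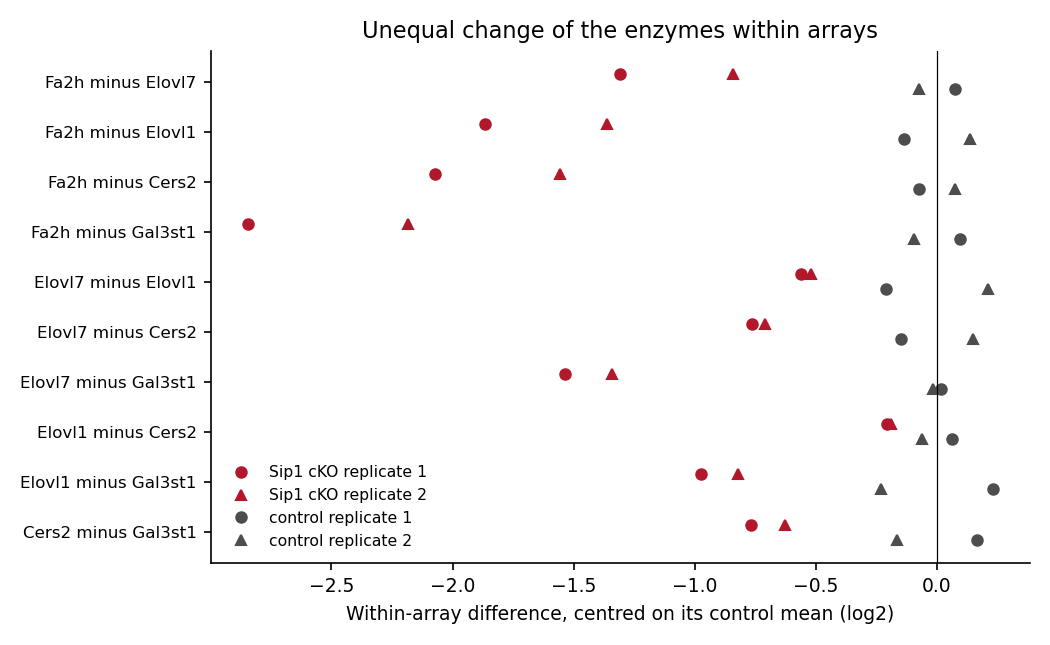
Within-array difference between 2 enzymes for all 10 pairs, shown in log2 units after the control mean of each pair was subtracted; red symbols are Sip1 cKO and grey symbols control, circles replicate 1 and triangles replicate 2. Fa2h minus Gal3st1 lies farthest from 0 in Sip1 cKO, with a mean of -2.51, and Elovl1 minus Cers2 lies nearest, with a mean of -0.20.

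Among all 35557 clusters ordered from the largest decrease, Fa2h stood at place 11, Elovl7 at 24, Elovl1 at 41, Cers2 at 51 and Gal3st1 at 112. Within the 369 named genes their places were 11, 23, 33, 41 and 82. Ugt8a stood at place 20 of all clusters, between Fa2h and Elovl7. These genes could be named only past the 1.45-fold cut-off, so a place away from the median was set by the naming.

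**Figure D4:**
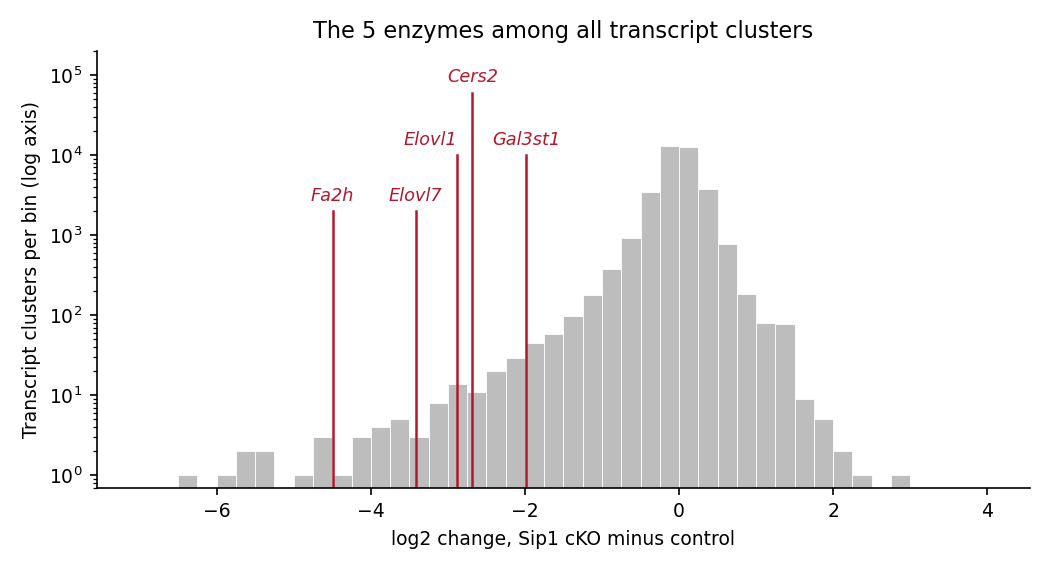
Distribution of the log2 change, Sip1 cKO minus control, over all 35557 transcript clusters in bins of 0.25, with the number of clusters per bin on a log axis; red lines mark the 5 enzymes. They lie between -4.50 and -1.98, in the left tail, while the median of all clusters is -0.01. Genes could be named only past the 1.45-fold cut-off, so a place away from the median was set by the naming.

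Replicates of the 5 genes varied in different ways. Control replicate 2 read higher than control replicate 1 for 4 genes, by 0.049 for Cers2 up to 0.382 for Gal3st1, and lower for Elovl1. In Sip1 cKO, replicate 2 was the higher one for 4 genes, and the gap of 0.584 for Fa2h compares with 0.066 to 0.119 for Cers2, Elovl1 and Elovl7. Mature oligodendrocyte markers also differed between the Sip1 cKO arrays. Of 10 such markers 8 were named, and their mean log2 value was 6.49 and 7.23 in Sip1 cKO replicates 1 and 2 against 12.04 and 12.13 in control. Replicate 2 was higher for 6 of the 8 in Sip1 cKO, by up to 1.61. For Ermn and Opalin, replicate 2 minus replicate 1 was -0.39 and -0.07 in Sip1 cKO. In control, replicate 2 was also higher for 6 of the 8. All 8 fell, by 2.84 for Cnp to 6.32 for Mog on the log2 scale. Fa2h at 4.50, Elovl7 at 3.42 and Elovl1 at 2.88 lay between Cnp and the 7 others, of which Mal fell least, by 4.81. Cers2 at 2.68 and Gal3st1 at 1.98 fell less than all 8 markers. Of all 369 named genes 55.3% passed as lower, a share that the naming had set. Whether the enzymes differ from these markers in their change was not tested. Markers could be named only past the 1.45-fold cut-off, so none of them could be at 0. The part of these markers in the decreases of the 5 enzymes was not tested.

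Of the other cell types that whole cord may contain, few markers were named. S100b, found in astrocytes and also in oligodendrocytes and 1 named of 8 astrocyte markers, read 10.54 and 10.51 in Sip1 cKO and 11.03 and 11.31 in control (log2 change -0.65, limma, adjusted p = 0.141). Markers of oligodendrocyte progenitors, microglia, neurons and vessels had no named cluster, and these and Schwann cells were not analysed here, so the labelled tissue could be checked only through the oligodendrocyte genes.

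For each enzyme the 3 named genes with the most similar profile were taken by Euclidean distance over the 4 arrays, after each gene had been centred on its control mean. Distance is in log2 units, and the measure rests on 4 arrays only. Candidates were only the 369 named genes, which were listed because they differed on these arrays, and all 15 nearest genes passed as lower. After centring, the distance largely follows the size of the decrease, so a near gene is mainly one with a similar fold. Gal3st1 at -1.98 and Unc5b at -2.01 are an example. Shared regulation was not tested. Nearest to Elovl1 were Ppp1r14a, an inhibitor subunit of myosin phosphatase, at 0.065, Cnp, an enzyme of non-compact myelin, at 0.155 and Tmem63a, a mechanosensitive channel, at 0.181. For Elovl7 they were Myrf, the transcription factor that switches on myelin genes, at 0.165, the cytochrome P450 gene Cyp2j12 at 0.183 and Erbb3, a neuregulin receptor, at 0.202. Ugt8a came next for Elovl7, at 0.341, just outside the 3 taken.

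Cers2 was nearest to Prr5l, a partner of the kinase complex mTORC2, at 0.062, then to the semaphorin Sema4d at 0.130 and to Gamt, which makes creatine, at 0.206. Cers2 and Elovl1 were 0.295 apart, the shortest distance between any 2 of the 5 enzymes, and Fa2h and Gal3st1 were 3.59 apart, the longest. Fa2h was nearest to Enpp6, a choline phosphodiesterase of newly forming oligodendrocytes, at 0.205, followed by the iron carrier Trf at 0.244 and by Mal, a proteolipid that binds sulfatide, at 0.529. Gal3st1 was nearest to the netrin receptor gene Unc5b at 0.056, to Plekhg1 at 0.083 and to Lss, which closes the ring of sterols, at 0.109.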

How the data were processed

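The arrays carried total RNA of spinal cord and were, per the file headers, of the Affymetrix type MoGene-1_0-st-v1. Per the submitters' processing notes, the deposited log2 values come from RMA, which corrects background, evens out the arrays and summarises probes, so a shift shared by most transcripts would not show. Its version, the probe annotation and the build are not given in the sources used here. Array values ranged from 1.71 to 14.5 and received no second normalization. A second deposited table lists 420 clusters past a 1.45-fold cut-off and above the 10th percentile of raw signal, with the fold as a ratio and group means as intensity and as centred log2 values, per the file headers. It calls a cluster up where control was higher. Signs here are Sip1 cKO minus control.

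Genes were named through clusters with 1 symbol, and symbols were updated through GRCm38.p6 names: 323 were current, 37 were updated by accession and 8 by a synonym, while 7 stayed as listed. A further 19 clusters had several symbols and 26 none. The cluster with the highest mean stood for a gene. The main test was limma 3.58.1 under R 4.3.3, with lmFit and eBayes (two-sided, no term but group) over all 35557 clusters, with no filter and Benjamini-Hochberg adjustment. The procedure was tested on simulated data. Exact permutation tests used scipy 1.17.1. The named genes are the 5 enzymes, Zeb2, every named gene of the pathway lists, the named markers and the 3 nearest profiles per enzyme, and 1 gene that this rule takes is not reported here. The members and lists were chosen with earlier results of these data known. Alternatives covered scaling, a dim filter, the eBayes spread, array weights, clusters kept, single arrays left out and a replicate block. The deviations of arrays with the same replicate number correlated at r = 0.0764 over clusters, which are not independent.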

Additional observations from a re-analysis of the deposited data

How the results depend on the processing

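All 5 enzymes and Zeb2 had the same direction in each alternative. Their groups did not overlap, so leaving out 1 array could not reverse it, and the filters and eBayes settings leave the log2 change itself as it was. All of these genes kept their calls with either scaling, the dim filter, the eBayes trend, robust eBayes and array weights. Calls were also kept with identical rows tested a single time and with the lowest identifiers left out. Folds of the authors' deposited table gave log2 changes within the spread between replicates. With 1 array left out in turn, the log2 change ranged from -2.92 to -2.84 for Elovl1, -3.59 to -3.25 for Elovl7, -2.71 to -2.65 for Cers2, -4.79 to -4.20 for Fa2h, -2.17 to -1.79 for Gal3st1 and -1.84 to -1.66 for Zeb2, and 0 to 4 of the 5 enzymes passed. Zeb2 lost its call each time (adjusted p 0.0628 to 0.0888). These fits have 1 residual degree of freedom, and a lone array takes the spread of the opposite group. Nothing beyond the number links same-numbered arrays. With the number as a replicate block 4 enzymes passed, and Gal3st1 at -1.98 did not (adjusted p = 0.0704).

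Counts over all clusters also changed with the setting. Lower clusters (305) numbered 649 with the dim filter, 487 with the eBayes trend, 600 without the 6613 lowest identifiers, 110 with the replicate block and 3027 at an unadjusted p under 0.05. Higher clusters (78) numbered 244 with the dim filter, 218 without the lowest identifiers, 24 with identical rows once, 1 with the block and 2826 unadjusted. Leaving out 1 array gave 0 to 59 lower and 0 to 2 higher. Named genes lower (204) numbered 310 without the lowest identifiers, 90 with the block and 0 to 46 with 1 array left out. The cause of these shifts was not tested. Settings for Ugt8a, Gltp and Hsd17b12 and for the counts of enzymes and named genes were added after seeing the data. The calls of Ugt8a and Gltp were lost without either control array, and Hsd17b12 passed in no setting. With 1 array left out, Elovl7 minus Elovl1 ranged from -0.75 without control replicate 1 to -0.33 without control replicate 2. Signal over background was not given in these files, so how far probe background compresses the low Sip1 cKO values was not tested.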
